A study of Mus musculus with 12 samples.

Results

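The cytosolic ribosomal protein genes encode the protein subunits of the ribosome that translates nuclear mRNA. They were taken from the count table by name, as genes whose symbol is Rps or Rpl with a number, the acidic proteins Rplp0, Rplp1 and Rplp2, and Rpsa. Genes with at least 100 counts over all 12 libraries were kept, and names marked as pseudogenes were dropped. Of 43280 genes in the table, 88 matched and 84 were kept, 37 of the small subunit and 47 of the large subunit. Just under the minimum lay Rpl24 with 74 counts, Rpl39l with 18, Rpl3l with 5 and Rpl10l with 0. Just above it were Rps6 with 223, Rps3a3 with 283, Rps12l2 with 292 and Rps12l1 with 737.

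Hypothalamus of male C57/Bl6 mouse pups was compared between 6 controls and 6 pups that underwent modified maternal separation (MMS). These MMS pups were kept apart from the dam for a period each day and turned over repeatedly while away. All tissue was taken on postnatal day 6, straight after the last session. The labels name no transgene or drug in either group. Each pup gave 1 library of a 3' mRNA kit, which yields about 1 read per captured transcript end whatever the length of the transcript, so CPM, counts scaled to the TMM-adjusted size of the library, can be set side by side between genes without division by length. Which litter a library came from is not stated.

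Ribosomal protein mRNAs are among the most abundant in growing cells and are made in near-equal amounts, since each ribosome holds 1 copy of most subunits. Many begin with a C followed by a run of pyrimidines, the 5' terminal oligopyrimidine or TOP start, through which mTOR signalling sets how well they are translated. In the developing brain, neurons and glia need ribosomes for growth and for the local translation of synaptic mRNAs.

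Total counts ran from 3218777 to 6560620 per library and did not differ between groups beyond the spread of the libraries (exact permutation test over 924 splits, two-sided, p = 0.173). All 20 hypothalamic marker genes looked for were detected, though not each in every library. Their sum was 1492 to 2416 CPM in controls and 1696 to 2318 CPM in MMS. MMS 2 and MMS 4 held 0 and 4 of 901 Agrp counts and 5 and 0 of 210 Nr5a1 counts. They held 30 and 18 of 1271 Pomc counts and 19 and 14 of 834 Tbx3 counts. Npy (125 and 192 of 6786 counts), Hdc (101 and 160 of 4397) and Ghrh (9 and 27 of 683) were also low there. Some markers were not, such as Pmch with 2362 and 5237 of 23894 counts. Summed ependymal cilia markers (6 of 8 tested, 0 of 6 higher in MMS) were 62.6 to 149.7 CPM in controls and 14.2 to 144 CPM in MMS, lowest in MMS 2 (14.2) and MMS 4 (28.4). Hydin, Ccdc153 and Tmem212 had 0 counts in MMS 2, while Foxj1 was detected in every library. Choroid plexus markers, mainly Ttr, summed to 1763 CPM in Control 3 and to 12.9 to 44.2 CPM elsewhere. Pituitary markers held 512 counts in all. In bulk tissue a smaller number of cells of a type and less RNA per cell cannot be told apart.

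The label of the group held for most members. In the GENCODE M21 annotation 79 of the 84 were protein coding, on 19 chromosomes with 15 genes on chromosome 7. Rps12l1, Rps3a2 and Rps3a3 were annotated as processed pseudogenes and Rps4l as a transcribed processed pseudogene, and Rps12l2 was not found under that name. Processed pseudogenes, or retrocopies, are copies of a processed mRNA put back into the genome. All 5 genes were kept because the rule includes them. Several ribosomal proteins fall outside the name rule. Among these Fau, a ubiquitin-like fusion that yields a small-subunit protein, had 4628 counts, and Gnb2l1 (Rack1, a scaffold on the small subunit) had 19892.

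RefSeq gave a start in GRCm38.p6 for 59 of the 84 genes. The TOP start, taken as a C at the annotated first base followed by at least 4 bases that are C or T, was held by 13 of them (22%, Wilson 95% interval 13.4 to 34.1) against 3.01% of 27025 genes in the same table. With a run of at least 6 it was held by 10 (16.9% against 1.29%). When the run could begin within 5 bases of the annotated start, 29 held it (49.2% against 21.2%). The windows printed here show 10 bases before the first annotated base and 20 from it on, 5′ to 3′ on the strand of the gene, and the capitals mark the pyrimidine start where there is one. They are shown for genes the later values turn on: members that hold the start, then members that do not, the latter among them the paralogs Rps27l and Rpl22l1.
Rps6 (chr4:86857348-86857377, minus strand): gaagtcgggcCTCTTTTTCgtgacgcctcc
Rpl15 (chr14:18270967-18270996, minus strand): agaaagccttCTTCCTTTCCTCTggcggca
Rps21 (chr2:180257369-180257398, plus strand): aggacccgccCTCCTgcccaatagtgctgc
Rplp2 (chr7:141447641-141447670, plus strand): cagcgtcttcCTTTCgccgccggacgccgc
Rpl35 (chr2:39005112-39005141, minus strand): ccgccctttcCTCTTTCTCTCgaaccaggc
Rps27 (chr3:90213629-90213658, minus strand): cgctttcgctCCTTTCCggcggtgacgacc
Rps27l (chr9:66946076-66946105, plus strand): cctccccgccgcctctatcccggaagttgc
Rpl22l1 (chr3:28805498-28805527, plus strand): gcgcaagcccgttctcttcccacggctgca
Rpl5 (chr5:107900518-107900547, plus strand): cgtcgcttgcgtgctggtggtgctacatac
Rps25 (chr9:44407704-44407733, plus strand): ccgacatcttagcgaggctgctgtggtcta
The paralogs Rps27 and Rps27l differed in this feature at the annotated first base, but Rps27l and Rpl22l1 also held a pyrimidine start when it could begin within 5 bases. Reads of a 3' kit do not reach the start of a transcript, so the start used in these pups was not measured. Holders of the TOP start had a median log2 fold change between MMS and control of -0.001 (6 higher, 7 lower) and the other 46 a median of -0.01 (19 higher, 27 lower).

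The mRNAs spanned a wide range of levels. Among the highest were Rps21, with a mean of 907 CPM, and Rps20 (746 CPM), both of the small subunit. The median over the members was 151 CPM. Rps6, the small-subunit protein that mTOR signalling phosphorylates, was lowest at 4.02 CPM, below Rps3a3 (5.11 CPM) and Rps12l2 (5.31 CPM). Many members have close copies elsewhere in the genome. The share of 50-base windows of the coding sequence that also occur in a transcript of another gene was 8.1% for Rps3, 8.7% for Rpl8 and 100% for 28 of the 83 genes with a sequence, Rps6 and Rpl10 among them (median 90.3%). The 13 genes under 50% had a median level of 226 CPM, the 42 between 50 and under 100% had 151 CPM and the 28 at 100% had 129 CPM. There were exceptions, such as Rps20 with 84.9% shared and Rps4l with 18% shared at 75.8 CPM. How reads with several matches were handled is not given in the sources used here, so levels set between subunits carry this limit. The windows cover the coding sequence only, whereas a 3' kit reads the ends of transcripts. Sharing at those ends was not measured.

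**Figure D1:**
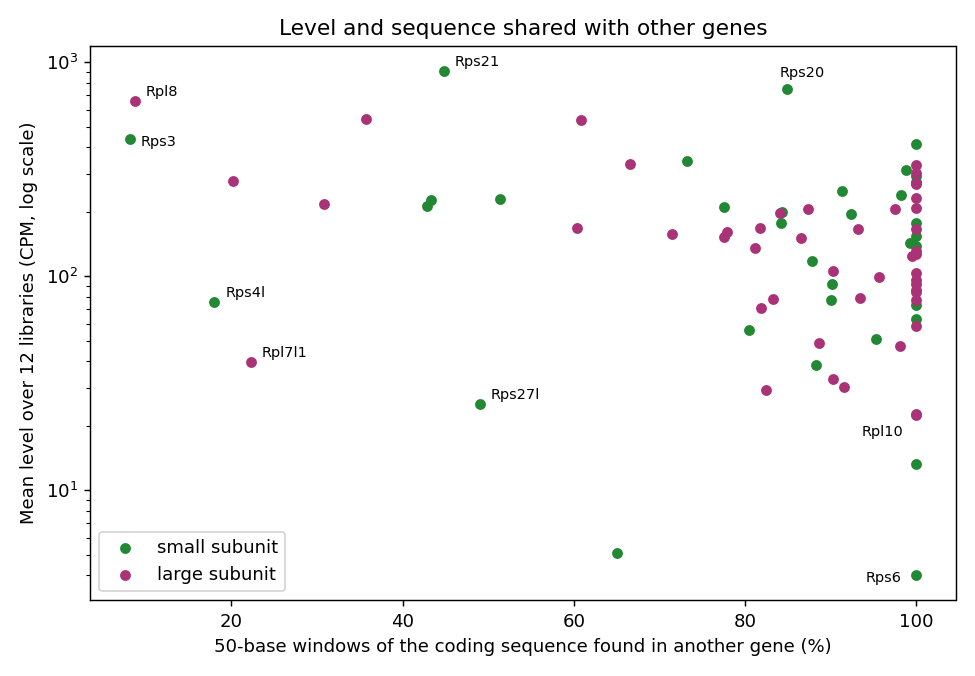
Mean level of 81 ribosomal protein genes over 12 libraries (CPM, log axis) against the percent of 50-base windows of the coding sequence found in another gene, with 1 point per gene coloured by subunit. Rps3 and Rpl8 lie at the left (8.1 and 8.7% shared), and Rps6, at 100% shared, is the lowest at 4.02 CPM.

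Counts under pseudogene names were large. The table held 252 ribosomal protein pseudogenes, 229 with a count, and they took 327767 counts against 879889 in the members, or 26.0 to 29.3% of both together in each library. The share was highest in MMS 4 (29.3%) and MMS 2 (28.2%), where the controls lay between 26.1 and 27.6%. Of the 58 members with such a pseudogene, 17 had fewer counts than their pseudogenes. Rpl31 had 5346 counts and Rpl31-ps8 28815. Rpl10, which joins the large subunit late in assembly, had 1229 counts and Rpl10-ps3 18844. Rps16 had 3462 and Rps16-ps2 22533. Rps6, the lowest member by level, had 223 and its 4 pseudogenes 3128 together. The level of the member alone does not count reads assigned to its pseudogenes. The pseudogenes that passed the count filter of edgeR, 101 in number, had a median log2 fold change of 0.01. In that test 0 were past the threshold, against 0% of all genes. At an unadjusted p under 0.05 there were 3, against 9.08% of all genes.

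The first comparison asked whether MMS changed the level of the ribosomal protein mRNAs as a whole. Together they took 1.60 ± 0.109% of counts in controls and 1.57 ± 0.114% after MMS (SD, 6 libraries each). The control libraries lay between 1.45 and 1.75% and the MMS libraries between 1.42 and 1.73%, so the groups overlapped over nearly their whole range. Small-subunit genes took 0.810 ± 0.0527% in controls and 0.785 ± 0.0488% in MMS, and large-subunit genes 0.788 ± 0.0569% and 0.784 ± 0.0667%. The ratio of small to large was 1.03 ± 0.0202 and 1.00 ± 0.0338. The highest ratio of any library was in Control 4 (1.05) and the lowest in MMS 3 (0.955).

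**Figure D2:**
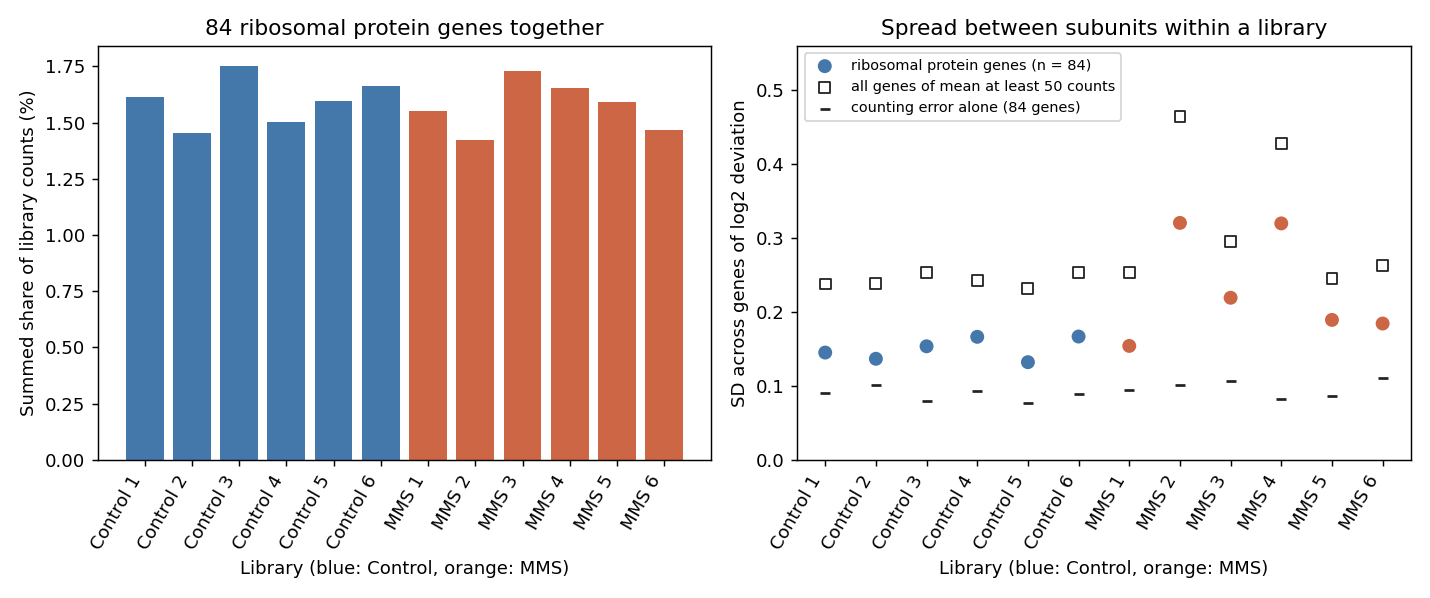
Left, percent of library counts in the 84 ribosomal protein genes, 1 bar per library. Right, SD across genes of the log2 deviation from the own mean of each gene, for the 84 genes (filled points), for all genes with a mean of at least 50 counts (squares) and as counting error alone gives it (dashes). The shares overlap between the groups (1.42 to 1.75%), and the spread is largest in MMS 2 and MMS 4.

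Gene by gene, no ribosomal protein mRNA passed the threshold. In the edgeR test over 13104 genes, 0 of the 84 members were past an adjusted p of 0.05, and 0% of all genes were. The lowest adjusted p of a member was 0.543 (edgeR). At an unadjusted p under 0.05 there were 5 members, against 9.08% of all genes. Of these, 4 were higher in MMS (background 4.68%) and 1 was lower (background 4.4%). The split by direction moved with the fit, to 3 higher and 3 lower by limma-voom and 3 higher and 5 lower with a replicate block. By DESeq2 there were 6 members at that level (6.23% of all genes) and by limma-voom 6 (10.3% of all genes), again with 0 past the adjusted threshold. In 0 members did the groups fail to overlap, against 0.389% of all genes, and in 0 was the absolute log2 fold change above 0.5, against 6.08%. The log2 fold changes ran from -0.38 to 0.35, with a median of -0.02 where the median of all genes was 0.0009. Of the 84, 43 had an absolute log2 fold change under 0.1. In all, 35 were above 0, where 50.1% of all genes were. The small subunit had a median of -0.06 (12 higher, 25 lower) and the large subunit one of -0.001 (23 higher, 24 lower). The SE of a member was 0.09 to 0.31 with a median of 0.12, so the half-width of a typical 95% interval was 0.24 on the log2 scale. A change below that could not be told from 0 in a typical member even without adjustment. Larger ones, such as 0.34 in Rpl15, also missed the adjusted threshold.

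**Figure D3:**
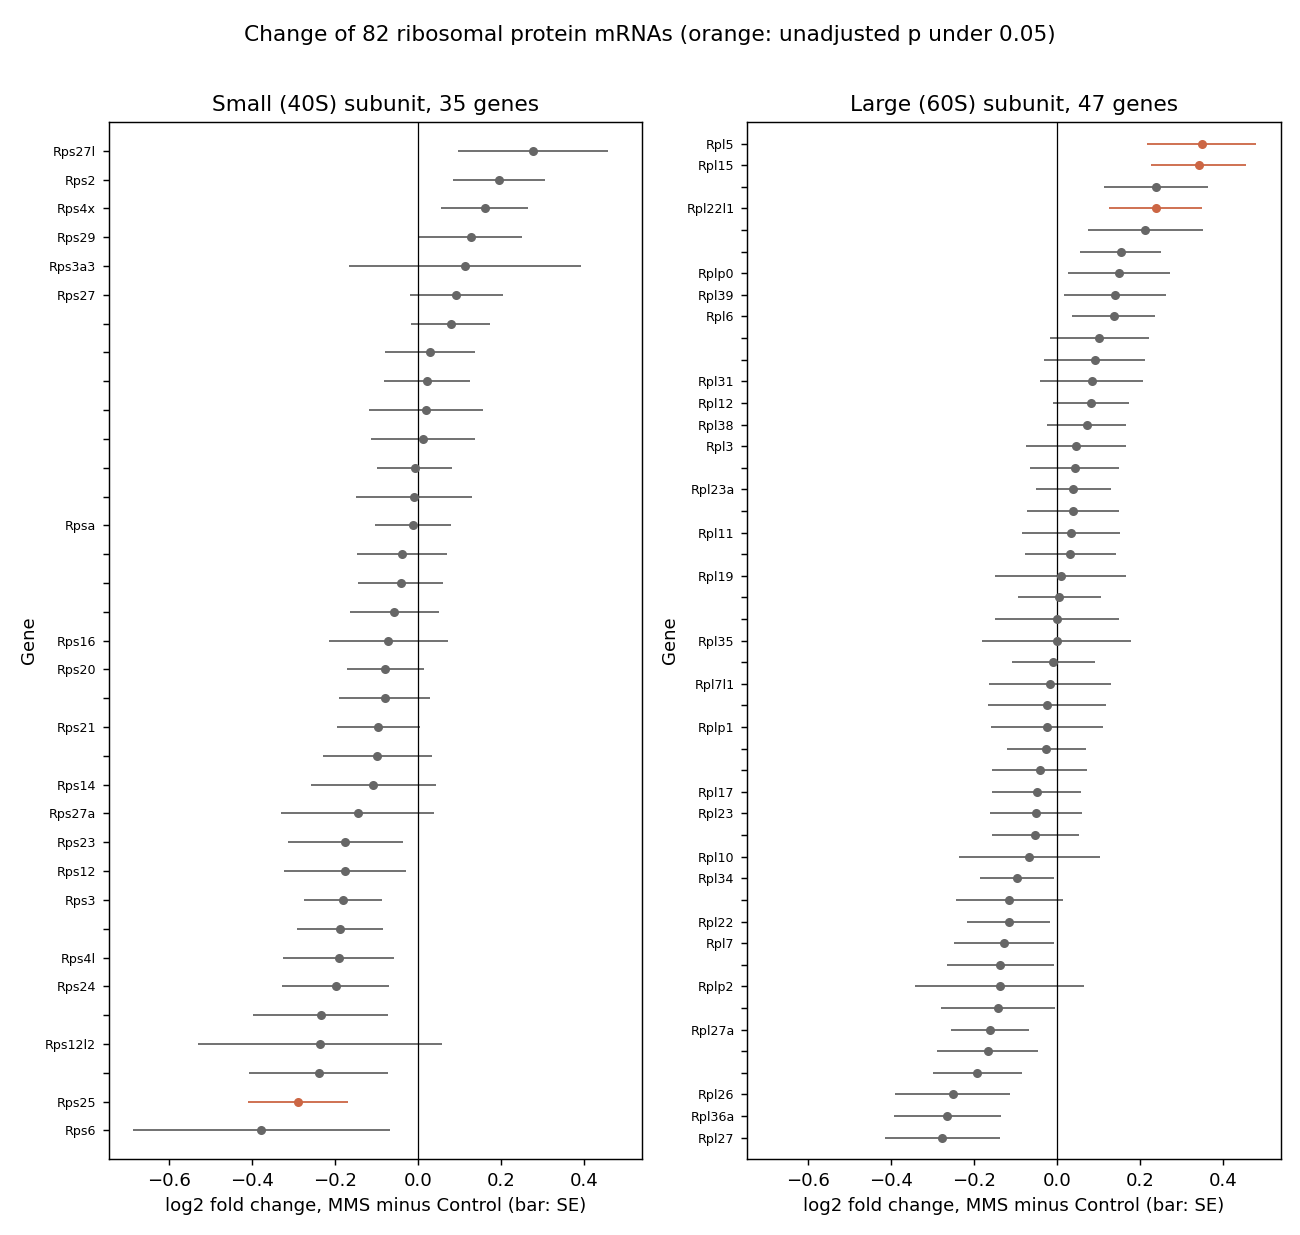
Log2 fold change (MMS minus Control, 6 pups per group) of 82 ribosomal protein genes with its SE, small subunit at left and large subunit at right, ordered by value, with names for genes described in the text. Values lie between -0.38 and 0.35, and 4 genes at an unadjusted edgeR p under 0.05 are in orange.

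The genes at an unadjusted p under 0.05 included Rpl15, Rpl5, Rps25 and Rpl22l1. Rpl15, a large-subunit protein needed for rRNA processing, stood at 55.2, 68.2 and 83.4 CPM (lowest, median and highest) in the 6 control pups and 72.8, 83.5 and 102.5 CPM in MMS pups. MMS 4 and MMS 2 (94.8 CPM) were its highest libraries, and 3 of 6 MMS pups lay above all controls. Its log2 fold change was 0.34 (SE 0.11; edgeR unadjusted p = 0.00709, adjusted p = 0.543), and without MMS 2 and MMS 4 it was 0.24. Rpl5, which carries the 5S rRNA into the large subunit and binds Mdm2 when assembly fails, stood at 60.7, 74.5 and 84.9 CPM in the 6 control pups and 72.5, 91.3 and 132 CPM in MMS. Its top library was MMS 4, and 4 of 6 MMS pups lay above all controls. The log2 fold change was 0.35 (SE 0.13; edgeR unadjusted p = 0.0147) and 0.20 without MMS 2 and MMS 4.

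Rps25, which some viral and cellular internal ribosome entry sites require, was the lower gene among the 5. It stood at 243.6, 261.3 and 294.3 CPM in the 6 control pups and 148.4, 219.4 and 269.1 CPM in MMS, with 4 of 6 MMS pups below all controls and MMS 3 the lowest. Its log2 fold change was -0.29 (SE 0.12; edgeR unadjusted p = 0.0264). Rpl22l1, a paralog of Rpl22, stood at 57.1, 63.6 and 74.4 CPM in the 6 control pups and 65.8, 76.2 and 89.6 CPM in MMS. The value was 0.24 on the log2 scale (SE 0.11; edgeR unadjusted p = 0.0466) and 0.15 without MMS 2 and MMS 4.

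**Figure D4:**
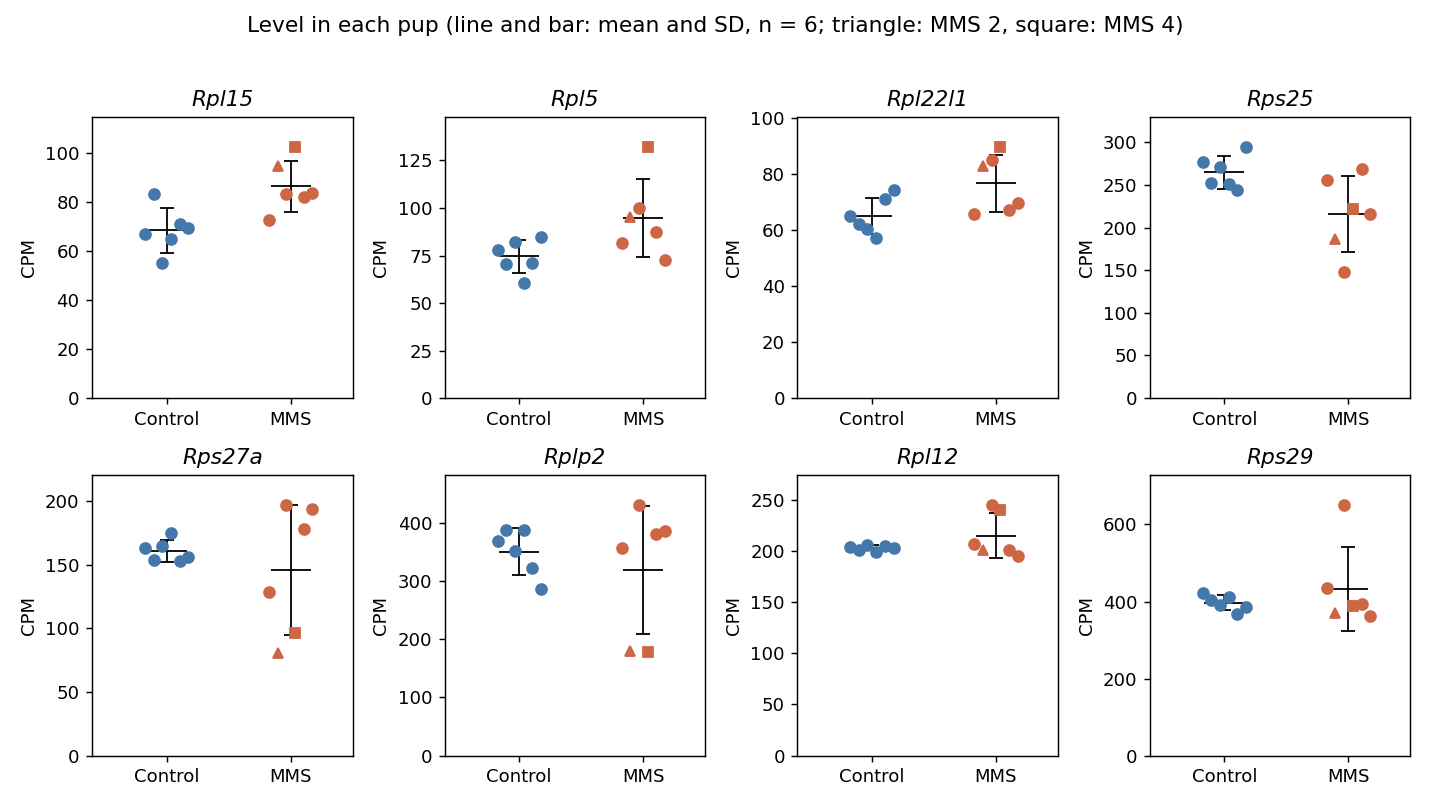
CPM of 8 ribosomal protein genes in each of 12 pups, with the mean and SD of each group of 6; triangles are MMS 2 and squares MMS 4. The groups overlap in every gene, MMS 2 and MMS 4 are the lowest libraries for Rps27a and Rplp2, and Rpl12 hardly varies among controls (199.4 to 206 CPM).

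Among the other members with a mean of at least 50 counts, the largest differences were in Rpl27, Rpl36a and Rps27l. Rpl27, a surface protein of the large subunit, stood at 295.4, 348.4 and 435.3 CPM in the 6 control pups and 206, 300.3 and 410.5 CPM in MMS, with a log2 fold change of -0.28 (SE 0.14). Rpl36a, near the exit site for tRNA, measured 122.8, 140.9 and 162.4 CPM against 83.8, 129.9 and 139.9 CPM, with -0.26 (SE 0.13). In both genes MMS 2 and MMS 4 were the lowest of the 12 libraries, and without them the log2 fold changes were -0.11 and -0.08. Rps27l, a paralog of Rps27 that p53 induces, measured 17.2, 23.5 and 28.5 CPM against 21.3, 24.2 and 41.9 CPM, with MMS 4 and MMS 2 highest. Its log2 fold change was 0.28 (SE 0.18), and 0.01 without those libraries.

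Members at one site of the ribosome had values of both signs. In the P-stalk, which recruits elongation factors, the base Rplp0 and its neighbour Rpl12 had log2 fold changes of 0.15 (SE 0.12) and 0.08 (SE 0.09), and the acidic proteins Rplp1 and Rplp2 -0.02 (SE 0.14) and -0.14 (SE 0.20). Rplp1 and Rplp2 were lowest in MMS 2 and MMS 4 and their signs turned without those libraries (0.16 and 0.15). Among the proteins linked to the 5S rRNA and p53, Rpl11 had 0.03 (SE 0.12) and Rpl23 -0.05 (SE 0.11), beside Rpl5 above. Around the rim of the tunnel through which the new peptide leaves, 4 of 8 genes were above 0, from -0.25 for Rpl26 (SE 0.14; -0.12 without MMS 2 and MMS 4) to 0.14 for Rpl39 (SE 0.12). The remaining 6, namely Rpl17, Rpl19, Rpl22, Rpl23a, Rpl31 and Rpl35, lay between -0.12 and 0.08. At the entry channel for mRNA, Rps2 had 0.19 (SE 0.11) and Rps3 -0.18 (SE 0.09). Rpsa, the laminin receptor homolog on the small subunit, had -0.01 (SE 0.09), and Rps6 had -0.38 (SE 0.31) from 6 to 31 counts per library. Genes mutated in Diamond-Blackfan anemia, a red cell disorder of ribosome shortage, numbered 12 and had a median of 0.02. At an unadjusted p under 0.05 in edgeR 2 were higher, Rpl5 and Rpl15 as above, and 0 lower. Of all genes 4.68% were higher and 4.4% lower at that level. Past the adjusted threshold there were 0 of the 12.

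Some paralogs can replace the product of their parent gene in the ribosome, so the share of the paralog in the sum of both was computed. The share is one of mRNA counts, and whether a paralog enters the ribosome was not measured. Rpl22l1 made up 22.4 ± 2.04% of Rpl22 and Rpl22l1 in controls (19.6 to 25.3%) and 27.1 ± 3.87% in MMS (23.5 to 33.8%; SD over 6 pups), with overlap of the groups. The highest shares were in MMS 2 (33.8%, Wilson 95% interval 30.8 to 37.0) and MMS 4 (29.0%, 26.9 to 31.2), and the intervals cover counting error only. The group difference of 4.69 percentage points was 2.52 without those libraries. Rpl36al made up 35.3 ± 1.42% of its pair with Rpl36a in controls and 40.7 ± 8.32% in MMS. That difference rested on the same libraries, which held 50.7 and 51.8% where the other MMS pups held 33.4 to 37.4% and the controls 33.4 to 37.4%, and it went from 5.44 to 0.18 percentage points without them. The coding sequence of Rpl36al shared all of its windows with other genes. Whether the transcript ends that a 3' kit reads are shared in this pair was not tested.

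For Rps27l the share was 11.6 ± 1.61% in controls and 13.0 ± 1.52% in MMS, and for Rpl7l1 it lay between 16.2 and 23.1% in controls and between 15.6 and 30.6% in MMS. The retrocopy Rps4l made up 52.3 ± 5.40% of its pair with Rps4x in controls and 46.3 ± 5.50% in MMS. Without MMS 2 and MMS 4 the differences in these 3 shares were 0.70, -1.77 and -2.95 percentage points, where they had been 1.35, 1.73 and -6.01. Paralogs known from other tissues were at or near 0. Rpl10l and Rpl39l, known from testis, had no count in any library and 18 counts, and Rpl3l, known from heart and skeletal muscle, had 5.

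The second comparison was of the spread between subunits within each library. For each gene, log2 CPM minus its mean over the 12 libraries was taken, and the SD of these deviations across the 84 genes measured how unevenly the subunits stood in a pup. It was 0.13 to 0.17 in controls (mean 0.15) and 0.15 to 0.32 in MMS (mean 0.23), where counting error alone gives 0.08 to 0.11. MMS 2 and MMS 4 were highest, both at 0.32. Of the other MMS libraries, MMS 1 (0.15) lay within the control range and MMS 3 (0.22), MMS 5 (0.19) and MMS 6 (0.18) above it. Rps6 was the lowest member in MMS 5 (-0.95, from 9 counts) and MMS 6 (-0.84, from 6 counts), which adds to their SD. In MMS 3, MMS 5 and MMS 6 the large-subunit genes alone gave 0.18, 0.14 and 0.15, within the controls (0.12 to 0.18). The small-subunit genes, Rps6 among them, gave 0.26, 0.24 and 0.22 there, above the controls (0.13 to 0.19). The difference between group means was 0.08, and 0.04 without MMS 2 and MMS 4.

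The same held for genes at large. Over all genes with a mean of at least 50 counts the SD was 0.23 to 0.25 in controls, 0.46 in MMS 2, 0.43 in MMS 4 and 0.25 to 0.30 in the other MMS libraries. In every library the ribosomal protein genes were less spread than these genes. The 2 sets were not matched for level, and counting error alone gives 0.10 to 0.14 for these genes against 0.08 to 0.11 for the members. Within groups the SD of log2 CPM had a median of 0.19 over the 81 members with that mean and 0.25 over the 9390 genes. Least variable of the members were Rpl27a (0.09), Rpl34 (0.09) and Rpl12 (0.10), and most variable were Rplp2 (0.43), Rps27a (0.39) and Rpl35 (0.37). MMS 2 and MMS 4 were also the libraries lowest in ependymal cilia markers, and they held few counts of some hypothalamic markers such as Pomc and Tbx3. The part of either in the spread was not tested.

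Members moved in both directions in those libraries. The median deviation of the 84 members was -0.20 in MMS 2, the lowest of the 12 libraries, and -0.007 in MMS 4. It was -0.09 to 0.12 in controls. Of 81 members with a mean of at least 50 counts, 21 had MMS 2 and MMS 4 as their lowest 2 libraries. In 6 they were the highest 2. Among the genes with a mean of at least 50 counts, 18.1% had them lowest and 17.7% highest. The members with both lowest included Rplp1 and Rplp2 of the P-stalk, Rps27a, a ubiquitin fusion, and Rps12, Rps14, Rps16, Rps23 and Rps24 of the small subunit. The 6 with both highest were Rpl6, Rpl15, Rpl31, Rpl38, Rps27 and Rps27l. Rplp2 stood at 180.0 CPM in MMS 2, 178.8 CPM in MMS 4 and 286.7 to 430.6 CPM in the other 10 libraries. Rps27a measured 80.9 and 96.1 CPM there and 128.8 to 196.8 CPM elsewhere, and the gap was similar in Rps12, with 156.9 and 192.3 CPM against 261.4 to 342.8 CPM. In Rplp2 and Rps12 the other MMS pups lay within or above the control range. In Rps27a 3 of 6 MMS pups lay above all controls (152.4 to 175.1 CPM) and 3 below, MMS 1 (128.8 CPM) among the latter.

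**Figure D5:**
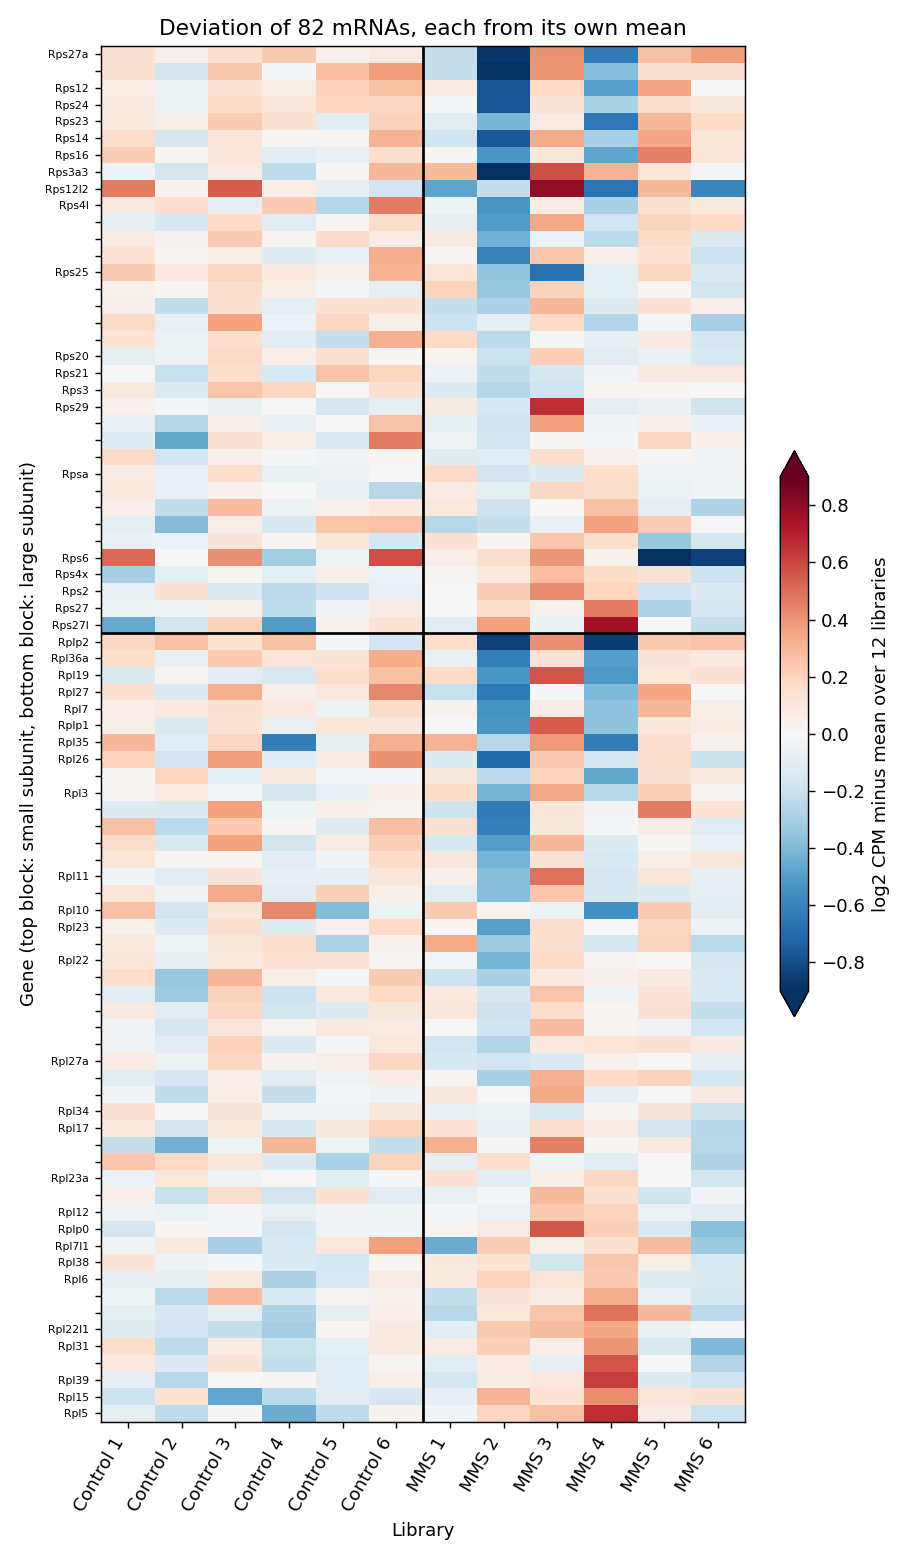
Deviation of 82 ribosomal protein mRNAs, each from its own mean (log2 CPM, colour from blue, lower, to red, higher) in 12 libraries, small subunit above and large subunit below, ordered within each by the mean in MMS 2 and MMS 4, with names for genes described in the text. In those libraries the blocks open with Rps27a (-0.88 and -0.63) and Rplp2 (-0.84 and -0.85) in blue and end with Rps27l (0.36 and 0.76) and Rpl5 (0.20 and 0.67) in red.

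Not every uneven value lay in MMS 2 or MMS 4. Rps29, chosen after its values were seen, was at 650.7 CPM in MMS 3 and 362 to 434.5 CPM in the other 11 libraries. Rps25 was lowest in MMS 3 as well, and Rplp0 (245.3 CPM) and Rplp1 (768.8 CPM) were highest there. Rpl12 lay between 199.4 and 206 CPM in all controls, and among MMS pups MMS 3 (245 CPM), MMS 4 (240.0 CPM) and MMS 1 (206.5 CPM) stood above that range and MMS 6 (195.5 CPM) below it.

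The genes that make, load and govern ribosomes were looked at beside their products, and 0 passed the adjusted threshold in edgeR. Counts at an unadjusted p under 0.05 in these lists stand beside 4.68% of all genes higher and 4.4% lower. Of 7 elongation factor genes 1 was lower at an unadjusted p under 0.05, Eef2, the translocation factor, with a log2 fold change of -0.30 (SE 0.13). Without MMS 2 and MMS 4 it was -0.18. Eef1a1 had 0.41 (SE 0.29), and 0.01 without those libraries, with MMS 2 (52.1 CPM) above all the others. Of 29 initiation factor genes 1 was lower and 1 higher at that level. Eif5b, which joins the subunits, averaged 103.7 ± 11.2 CPM in controls and 81.2 ± 4.04 CPM after MMS (SD, n = 6 per group), with all 6 MMS pups below all controls (log2 fold change -0.35, SE 0.10; edgeR unadjusted p = 0.00187, adjusted p = 0.471). Eif3g had 0.42 (SE 0.19), and 0.08 without MMS 2 and MMS 4.

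Of 34 ribosome assembly genes 2 were lower and 0 higher at an unadjusted p under 0.05 in edgeR, Nop2, an rRNA methyltransferase (-0.36, SE 0.13), and Utp3 of the small-subunit processome (-0.29, SE 0.13). Of 17 tested genes of mTOR signalling and its control of these mRNAs 3 were higher and 1 lower at that level. Ddit4, an mTOR inhibitor induced by stress hormones, had a log2 fold change of 0.97 (SE 0.36), and 0.21 without MMS 2 and MMS 4. Akt1s1, a subunit that restrains mTOR complex activity, had -0.65 (SE 0.23), and -0.42 without them. Mitochondrial ribosomal protein genes, which belong to a separate ribosome, had 3 of 75 higher and 2 lower and a median of 0.04. Among them Mrpl1 had -0.34 (SE 0.14) with all 6 MMS pups below all controls, and Mrps12 had -0.41 (SE 0.16), and -0.18 without MMS 2 and MMS 4, its lowest libraries (58.6 and 71.3 CPM).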

How the data were processed

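Libraries were prepared from P6 hypothalamus with a 3' mRNA kit and sequenced on the Ion Proton platform, and the authors aligned reads to mm10 in the Torrent Suite. They deposited raw counts per gene, 1 column per library, without normalization or pooling. The counting tool, its annotation and its handling of strand and of multiple matches were not given in the sources used here. Male pups of a litter were split between the groups, so p-values treat pups as independent although littermates may lie in both. Over 30 within-group pairs the chi-square per degree of freedom was 4.04 to 31.5, so libraries were kept as separate samples. Genes were tested with edgeR 4.0.16 (R 4.3.3; quasi-likelihood, robust, TMM, default filter with a minimum count of 10 and total of 15), two-sided, with Benjamini-Hochberg adjustment over 13104 genes at 0.05. Deviations used a prior count of 2. DESeq2 1.42.0 and limma 3.58.1 were alternatives, and scripts were tested on simulated data. Genes named were those at p under 0.05, the extremes of level, change and variability, members of structural, paralog and assembly lists, Rps6 and Rpsa, and the 2 of smallest p in each context list. Some genes within these lists are not reported here and are left out of the figures of single genes. Members and lists were chosen with earlier results of these data known. Sequence sharing used GENCODE M21 transcripts, and starts came from RefSeq.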

Additional observations from a re-analysis of the deposited data

Results flagged for a closer look

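Library measures, paralog shares and the named ribosomal protein genes made 104 sets of 6 values, 1 per group. Rps29, chosen after its values were seen (650.7 CPM in MMS 3), was not among them. In 1 set a single library stood far from the others under the 95% limit of Dixon's test, which chance passes in about 1 in 20 sets. Rpl39, a small protein at the rim of the exit tunnel, was at 299.6 CPM in MMS 4, and the other 5 of its group lay between 171.7 and 207.7 CPM, within or just above the controls. Its log2 fold change of 0.14 became -0.03 without MMS 2 and MMS 4.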

How the results depend on the processing

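In each of the 20 other fits 0 ribosomal protein genes and 0 context genes passed the adjusted threshold in edgeR, DESeq2 or limma-voom. At an unadjusted p under 0.05 there were 5 members, 5 to 7 under other tests, scalings and filters (background 6.23 to 10.3%), and 4 (background 5.03%) without MMS 2 and MMS 4. Leaving out 1 library gave 3 to 10, with 3 without MMS 2 (background 5.27%) or MMS 4 (5.35%), 8 without Control 2 (8.37%) and 10 without MMS 5 (13.6%). With a replicate block there were 8 (background 9.34%). The 4 higher and 1 lower became 3 and 5 with the block and without Control 2, 2 and 5 without MMS 3, and 4 and 3 with library totals. Same-numbered libraries correlated at -0.04 to 0.14 in their deviations, and 1 control correlated best with its own number. These deviations also hold the wide shifts of MMS 2 and MMS 4, so they cannot settle whether the numbers mark litters. The median of the members was 0.03 without MMS 2 and MMS 4 and -0.07 to 0.02 on leaving out 1 library. The TOP start rose to 49.2% when it could begin within 5 bases.

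Without MMS 2 and MMS 4 the sign turned in Rpl35 (0.20), Rplp1 (0.16), Rplp2 (0.15), Rps27a (0.12), Rpl23 (0.05), Rpl10 (0.0495), Rpl7 (0.0431), Rpl31 (-0.0597), Rps27 (-0.0558) and Rpl39 (-0.0281). Rpl35 also turned with median-ratio scaling (0.0056), library totals (0.0052), no filter (0.0084), the replicate block (0.007) and DESeq2 (0.0088), Rpl19 with the block (-0.0226) and limma-voom (-0.0486), Rpl7l1 with library totals (0.0038), and Rpsa with library totals (0.0034) and no filter (0.0004). On leaving out 1 library, values of the genes that turned ran from -0.10 to 0.12 for Rpl35, -0.12 to 0.11 for Rpl19, -0.0762 to 0.0735 for Rpl7l1, -0.038 to 0.0276 for Rpsa, -0.14 to 0.0371 for Rpl10, -0.077 to 0.11 for Rpl11, -0.0854 to 0.037 for Rpl23, -0.0217 to 0.13 for Rpl3, -0.16 to 0.0704 for Rplp1, -0.0018 to 0.29 for Rps3a3, -0.0215 to 0.14 for Fau and -0.13 to 0.0133 for Rps27rt. All of these are within their SE of 0 in the reported fit, except Rpl7 and Rpl39, and the cause was not tested. Leaving out 1 library, the group difference in summed share ran from -0.06 to 0.0028 percentage points and that in spread from 0.07 to 0.10. Alternatives without the 4 annotated retrocopies and Rps12l2, and paralog shares without MMS 2 and MMS 4, were chosen after seeing the data. The counts do not reach changes below about 0.24 on the log2 scale in a typical member.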
